A study of Homo sapiens with 4 samples.

Results

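Small Cajal body RNAs (scaRNAs) are the guide RNAs that direct chemical modification of the spliceosomal snRNAs. Here 10 scaRNA genes were taken by symbol, by a rule that uses no measured value, although earlier results of these data were known when the list was made: SCARNA1, SCARNA2, SCARNA5, SCARNA6, SCARNA7, SCARNA8, SCARNA10, SCARNA12, SCARNA13 and SCARNA17. Of these, 9 were paired with one of the 51714 Ensembl gene identifiers of the count files. The current identifier of SCARNA2 was not among them, so SCARNA2 was not analysed here.

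The cells were Raji, an established Epstein-Barr-virus-positive B cell line from a Burkitt lymphoma, and the study asked whether loss of a methylation site of RNA polymerase II alters gene expression. Both groups carried the vector LS*mock, which encodes RPB1, the polymerase's large subunit, with an HA tag and resistance to α-amanitin. It was wild-type (WT) in 2 libraries and had the R1810A substitution, alanine for arginine in the C-terminal domain, in 2 others. Cells of both groups were electroporated, selected with G418 for 6 to 12 days and then kept in α-amanitin, which blocks the polymerase the cells make from their own gene, for 10 days. The batches were polyclonal, and both groups still carry the endogenous gene, so the comparison is between recombinant subunits and not with untransfected cells. RNA was depleted of ribosomal RNA and read on an Illumina GAII. The labels do not state whether replicates are separate cultures, and p-values therefore reflect just the library-to-library spread, possibly technical.

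Summed gene counts were 2081636 to 2991959 per library. POLR2A, the gene of the replaced subunit, had 865 ± 15.1 CPM (counts scaled to the library's total) with the WT vector and 998 ± 64.4 with R1810A (SD, n = 2; log2 fold change 0.21, SE 0.11, adjusted p = 0.655). Its counts do not tell the vector from the endogenous gene and so do not check the labels. All 8 B cell markers listed were tested genes, with CD74 the most abundant, and their summed level was 6000.0 to 7570.0 CPM in WT and 6970.0 to 7780.0 CPM in R1810A. Summed T cell, epithelial and fibroblast markers reached at most 6.25 CPM in any library, with CD2, CD3D, EPCAM, KRT8, KRT18, KRT19, COL1A2, COL3A1, DCN and LUM at 0 in every library. Of the myeloid list CSF1R and ITGAM were tested, neither past the threshold (log2 fold changes 0.30, SE 0.21, and 0.53, SE 0.33), S100A8 was at 0, and the summed level was 148 to 223 CPM in WT and 182 to 275 CPM in R1810A. In bulk RNA, fewer cells that hold an RNA and less of it per cell cannot be told apart.

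ScaRNAs work in the Cajal body, a nuclear compartment where snRNPs mature. Those of the H/ACA kind carry dyskerin and place pseudouridines, those of the C/D kind carry fibrillarin and place ribose methyl groups, and composite members have both kinds of domain. Most are cut out of introns of other genes, while a few, SCARNA2 and SCARNA17 among them, are known as independently transcribed.

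The ends of the RNAs were searched for boxes of the 2 kinds of domain. Such a search does not show an inner domain of a composite member, and a missing match does not show that a domain is absent. The GENCODE release 29 transcript of each of the 9 genes had the deposited gene length, and the sequences below are those transcripts, in DNA letters from 5′ to 3′. Capitals mark 3 features searched on the sense strand only, since the molecule is an RNA. These are TGATGA (the C box) starting in the first 10 bases, ACA (the box that ends H/ACA RNAs) followed by exactly the last 3 bases, and TGAG (the Cajal body box, CAB) anywhere. In SCARNA12 the first TGAG overlaps TGATGA by 3 bases, so they print as 1 run. Shown first are the pair that passed the test, both with ACA at the end, on GRCh38 at chr1:27834401-27834566 (plus strand) and chr9:19063656-19063786 (minus strand).

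SCARNA1: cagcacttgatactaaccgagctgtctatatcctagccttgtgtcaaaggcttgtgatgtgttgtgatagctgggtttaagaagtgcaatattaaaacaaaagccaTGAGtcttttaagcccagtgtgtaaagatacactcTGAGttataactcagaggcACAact
SCARNA8: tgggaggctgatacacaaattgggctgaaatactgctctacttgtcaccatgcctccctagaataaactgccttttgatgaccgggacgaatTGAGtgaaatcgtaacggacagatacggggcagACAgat

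SCARNA13 also ends in the ACA box but is 275 bases long (chr14:95533355-95533629, minus strand). It is shown because its level did not pass the test.

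SCARNA13: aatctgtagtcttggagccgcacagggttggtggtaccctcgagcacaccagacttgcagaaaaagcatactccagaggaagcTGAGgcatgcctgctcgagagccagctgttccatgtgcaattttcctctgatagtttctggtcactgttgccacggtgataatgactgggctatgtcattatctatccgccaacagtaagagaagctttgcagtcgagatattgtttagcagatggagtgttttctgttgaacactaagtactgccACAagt

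SCARNA12 is the member with the most reads (chr12:6967337-6967606, minus strand), and SCARNA5 has the widest spread within WT (chr2:233275727-233276002, plus strand). Both begin with the C box.

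SCARNA12: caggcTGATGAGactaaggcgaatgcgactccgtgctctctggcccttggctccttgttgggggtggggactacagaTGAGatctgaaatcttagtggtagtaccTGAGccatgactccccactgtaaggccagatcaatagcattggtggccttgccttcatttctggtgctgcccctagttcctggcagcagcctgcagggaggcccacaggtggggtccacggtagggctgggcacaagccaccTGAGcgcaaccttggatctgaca
SCARNA5: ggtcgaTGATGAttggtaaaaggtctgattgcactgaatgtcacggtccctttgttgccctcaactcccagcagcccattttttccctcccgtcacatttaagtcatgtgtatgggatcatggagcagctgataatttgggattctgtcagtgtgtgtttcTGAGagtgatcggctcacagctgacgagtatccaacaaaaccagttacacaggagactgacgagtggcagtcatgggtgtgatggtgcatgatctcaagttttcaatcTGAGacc

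SCARNA17 stands for the independently transcribed kind (chr18:49814133-49814276, plus strand) and holds neither terminal box in this window.

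SCARNA17: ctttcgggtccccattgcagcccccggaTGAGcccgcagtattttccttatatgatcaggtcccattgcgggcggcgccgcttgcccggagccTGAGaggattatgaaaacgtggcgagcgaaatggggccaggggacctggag

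The terminal C box was found in 5 members, SCARNA5, SCARNA6, SCARNA7, SCARNA10 and SCARNA12, and the terminal ACA box in 3, SCARNA1, SCARNA8 and SCARNA13. Among all 11254 GENCODE transcripts of 120 to 340 bases, 0.578% held that C box and 3.95% that ACA box. TGAG occurred in all 9 members, but also in 72.7% of those transcripts. A match is a description of the letters and not of a working site.

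By reads, the members fell into a wide range. RPKM, reads scaled by gene length and library total, was used to set levels of different genes side by side. Whether RNAs of different lengths were recovered equally was not tested, so the order is one of reads and not of molecules. In WT the order of group means was SCARNA12, which guides modification of U5 (613 ± 14.6 RPKM, SD, n = 2), SCARNA13 (307 ± 47.4), SCARNA10 (248 ± 142), SCARNA7 (214 ± 21.5), SCARNA1 (136 ± 3.12), SCARNA6 (63.1 ± 12.4), SCARNA5 (58.1 ± 45.9), SCARNA17 (13.6 ± 4.72) and SCARNA8 (6.55 ± 1.27). In R1810A SCARNA12 (mean 702) was again first, while SCARNA1 (482 ± 213) stood next to it and SCARNA8 (69.7 ± 33.2) stood above SCARNA17 (12.0 ± 5.05). SCARNA12 alone gave 28.0 to 40.7% of the reads of the 9 genes. Some neighbours in the WT order were not apart beyond their libraries. The 2 WT values of SCARNA10 (148 and 348) span all those of SCARNA7 and SCARNA13, and those of SCARNA5 span those of SCARNA6. The other neighbours did not overlap in WT. In R1810A the libraries of SCARNA1 (633 and 331) reach those of SCARNA12 (773 and 631), and those of SCARNA8 (93.1 and 46.2) overlap those of SCARNA5 and SCARNA6.

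**Figure D1:**
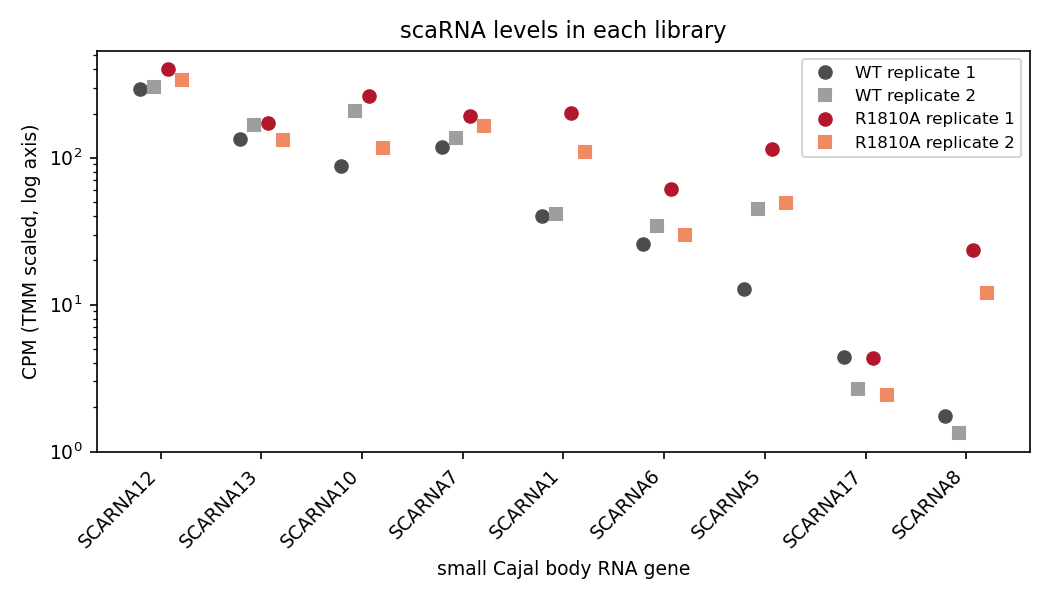
CPM with TMM scaling (log axis) for each scaRNA gene in each library, WT in greys and R1810A in red and orange. The R1810A points of SCARNA1 (202 and 109) and SCARNA8 (23.5 and 12.0) lie clear of the WT points, while SCARNA10 spreads as widely within a group as between groups.

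The comparison of R1810A with WT used edgeR's quasi-likelihood test across 10674 genes, with Benjamini-Hochberg adjustment at 0.05. Of the 9 members 8 were tested, 2 were higher in R1810A, 0 were lower and 6 did not pass. Over all genes tested 0.347% were higher and 0.00937% lower. At an unadjusted p under 0.05, 5 members were higher and 0 lower, against 4.94% and 3.06% of all genes. DESeq2 and limma-voom also called 2 members higher and 0 lower. In 5 tested members each R1810A library exceeded each WT library, against 19.8% of all genes, and the reverse held in 0, against 19.5%. Of the members 7 fold changes were above 0, against 49.4%. The filter on low counts needs reads in 2 libraries. SCARNA8 reached it through R1810A only, so its passage favoured a difference, and the median log2 fold change was 0.53 over the 8 tested members and 0.49 over the 7 that reached it in both WT libraries.

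Of the members with a terminal ACA box, SCARNA1, which guides pseudouridylation of U2, gave 91 and 124 reads in the WT libraries, then 422 and 227 with R1810A. That is 39.9 and 41.3 CPM against 202 and 109 CPM. The WT libraries were nearly equal, both R1810A libraries lay above them, and R1810A replicate 1 stood 1.85-fold above replicate 2. SCARNA1 rose 3.83-fold (log2 fold change 1.94, SE 0.25, adjusted p = 0.00596). The call was lost without WT replicate 1 (adjusted p = 0.0718) or WT replicate 2 (0.195) and with robust edgeR (0.0855), where the log2 fold change was 1.92, 1.96 and 1.94.

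SCARNA8, another U2 guide of the H/ACA kind, was rare in WT, with 4 reads in each library, and had 49 and 25 in R1810A. The levels were 1.75 and 1.33 CPM against 23.5 and 12.0 CPM, with no overlap between groups. It rose 11.4-fold (log2 fold change 3.51, SE 0.50, adjusted p = 0.0116). With so few reads in WT the size is loosely bounded: the ratio of its shares of counts was 11.7 with an exact 95% interval of 5.65 to 28.1, which covers counting error only. The call was lost without WT replicate 1 (adjusted p = 0.0652) or WT replicate 2 (0.227), where the log2 fold change was 3.69 and 3.30.

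SCARNA13, a long RNA of the H/ACA kind that also ends in the box, gave 308 and 506 WT reads, then 359 and 274 with R1810A. At 135 and 168 CPM against 172 and 132 CPM the groups overlapped fully, and the fold was 0.998 (SE of the log2 value 0.15, adjusted p = 0.995). The ratio of its shares, 0.985, had a counting interval of 0.887 to 1.09. A change of the size seen in SCARNA1 thus lay far outside its counting error.

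No member with the terminal C box passed the test. SCARNA7, which guides methylation of U1, had levels of 118 and 136 CPM (WT) against 193 and 165 CPM (R1810A libraries). The groups did not overlap, and the log2 fold change was 0.49 (SE 0.13, adjusted p = 0.234). SCARNA12 had 292 and 303 CPM against 402 and 338 CPM, again without overlap, at 0.31 (SE 0.12, adjusted p = 0.512). GENCODE places an exon of a retained-intron transcript of PHB2 over SCARNA12, so reads of its host cannot be told apart there.

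The other C box members, SCARNA5, SCARNA6 and SCARNA10, all guide modification of U5 and varied mostly within groups. SCARNA10 was measured at 87.6 and 207 CPM for WT, against 265 and 117 CPM. Its higher WT library lay above its lower R1810A library, and the log2 fold change was 0.35 (SE 0.37, adjusted p = 0.837). SCARNA5 had 12.7 and 44.9 CPM against 114 and 49.1 CPM, barely without overlap (1.44, SE 0.45, adjusted p = 0.373). SCARNA6, which lies in the same host gene as SCARNA5, had 25.9 and 34.3 CPM against 60.9 and 29.8 CPM, with overlap (0.58, SE 0.29, adjusted p = 0.654). In each of these RNAs WT replicate 1 was the lowest library and R1810A replicate 1 the highest.

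The spread within groups was wide beside that of tested genes with a mean count of at least 100, a set not matched for depth or length. SCARNA5, with a mean count of 126, lay near that limit. The higher WT library exceeded the lower one 2.36-fold in SCARNA10 and 3.54-fold in SCARNA5, whereas the median ratio over 5424 tested genes with a mean count of at least 100 was 1.11. Only 0.129% of those genes had a WT ratio as large as that of SCARNA10, and 0.0369% one as large as that of SCARNA5. The R1810A ratio of SCARNA10, 2.26, was reached by 0.0922% of them, where the median was 1.08. SCARNA12 and SCARNA7, at similar or higher counts, had WT ratios of 1.04 and 1.16. Without R1810A replicate 2, the log2 fold change was 1.93 for SCARNA5, 1.00 for SCARNA6 and 0.83 for SCARNA10. Without R1810A replicate 1, SCARNA5 stood at 0.72, SCARNA6 at -0.02 and SCARNA10 at -0.35.

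**Figure D2:**
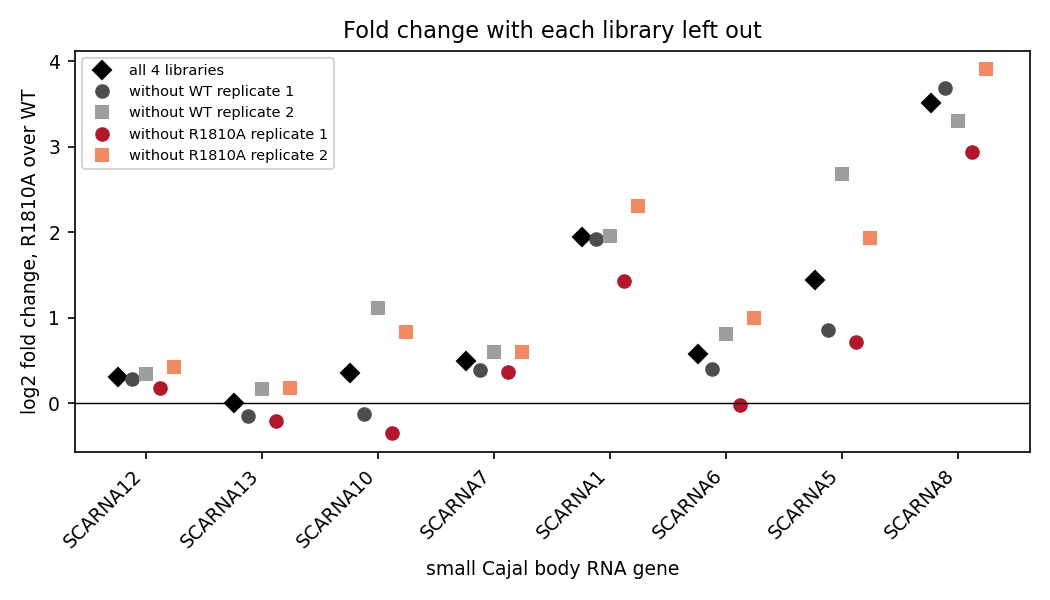
Log2 fold change of each tested scaRNA gene with all 4 libraries (black diamonds) and with each library left out in turn (circles and squares). SCARNA1 and SCARNA8 stay at or above 1.43 throughout, while SCARNA10 runs from -0.35 to 1.12.

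R1810A replicate 1 was the library of highest CPM in 8 of the 9 members, against 22.7% of all genes tested. WT replicate 1 was the lowest in 6, against 26.3%. What sets R1810A replicate 1 apart was not tested.

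SCARNA17, a C/D RNA known to guide methylation of U4 and U12, was the only independently transcribed member with an identifier. It had 10 and 8 reads in the WT libraries, 9 and 5 with R1810A, and fell below the filter. At 4.38 and 2.66 CPM against 4.32 and 2.41 CPM the groups overlapped. Tested without the filter, its log2 fold change was -0.04 (SE 0.52, adjusted p = 0.974). The ratio of its shares was 0.985 with a counting interval of 0.454 to 2.10. A rise like those of SCARNA1 and SCARNA8 lay outside that interval, but the interval leaves out the spread between libraries and so excludes no rise. One like that of SCARNA7 could not have been detected at this depth. The identifier covers 144 bases inside an exon of SNHG22, so host reads cannot be told apart.

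Set against the 8 intron-encoded members, SCARNA17 made up 0.611% and 0.284% of the reads of the 9 genes in WT and 0.300% and 0.252% in R1810A. The exact Clopper-Pearson intervals at 95% (0.293 to 1.12%, 0.123 to 0.558%, 0.137 to 0.569% and 0.0819 to 0.587%) all overlapped. The log2 ratio of SCARNA17 reads to intron-encoded reads was -7.90 ± 0.786 in WT and -8.50 ± 0.180 in R1810A (SD, n = 2), a difference of -0.600 that is smaller than the SD in WT. Dropping WT replicate 1 took it to -0.0442, and dropping WT replicate 2 to -1.16. With 1 gene in one class, the classes cannot be told from that gene.

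Each intron-encoded member was also set beside its host gene. PPP1R8, a regulatory subunit of protein phosphatase 1 that holds SCARNA1, had 170.0 ± 14.8 CPM against 165 ± 4.04 CPM with R1810A (SD, n = 2), and its log2 change was -0.04 (SE 0.12, edgeR's adjusted p = 0.956). Reads of SCARNA1 per read of PPP1R8 were 0.221 and 0.259 in WT and 1.21 and 0.674 in R1810A. HAUS6, an augmin subunit that holds SCARNA8, had 34 and 49 reads against 24 and 34 (-0.17, SE 0.28, adjusted p = 0.906). There the reads of SCARNA8 per host read went from 0.118 and 0.0816 in WT to 2.04 and 0.735 in R1810A. For both RNAs these ratios did not overlap between groups, while the host levels did.

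For the other members the ratios lay closer together between groups or overlapped. SCARNA7 gave 0.828 and 0.872 reads per read of KPNA4, an importin, in WT and 1.17 and 1.05 in R1810A. SCARNA12 gave 0.450 and 0.450 per read of PHB2, a prohibitin, against 0.577 and 0.516. In this pair of RNAs the groups did not overlap. SCARNA10 in NCAPD2, a condensin subunit, had 0.230 and 0.456 against 0.773 and 0.316, with overlap. The ratios of SCARNA5 (0.171 and 0.616 against 1.53 and 0.604) and SCARNA6 (0.347 and 0.470 against 0.814 and 0.367) to ATG16L1, an autophagy gene that holds both, overlapped between groups. SCARNA13 outnumbered its noncoding host SNHG10 by 8.06 to 11.2 reads to 1 in every library. SCARNA11, not a listed member, had 0.00431 and 0.00767 reads per read of CHD4 in WT and 0.0614 and 0.0130 in R1810A, without overlap. One host, ATG16L1, carried a pair of RNAs with log2 fold changes of 1.44 and 0.58, neither past the threshold.

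**Figure D3:**
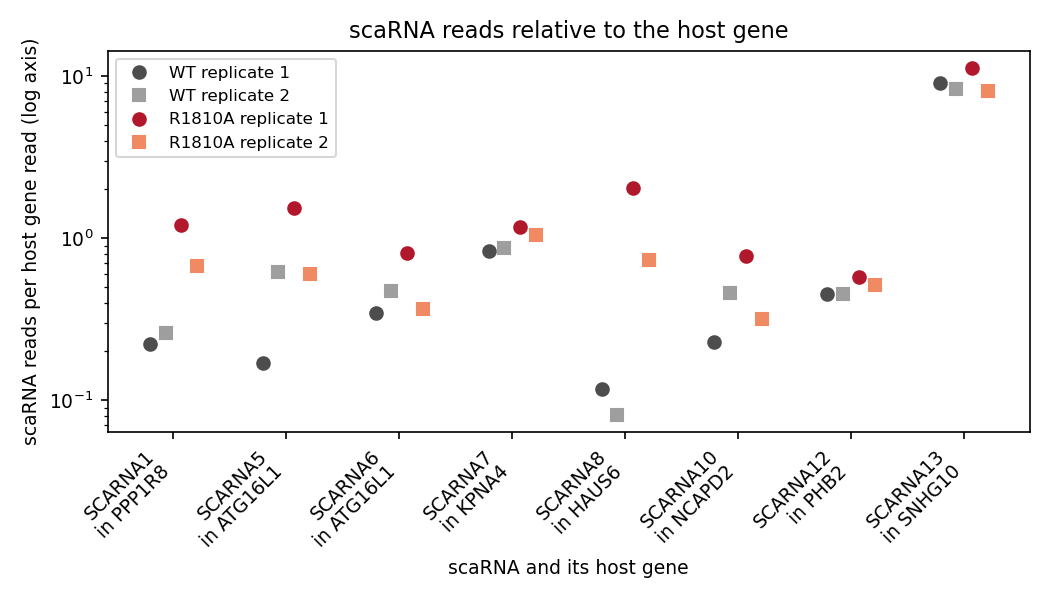
Reads of each intron-encoded scaRNA divided by reads of its host gene in the same library (log axis), WT in greys and R1810A in red and orange. The groups are far apart for SCARNA1 and SCARNA8 and overlap for SCARNA5, SCARNA6, SCARNA10 and SCARNA13.

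As a list, the host genes held no gene past the threshold. Of 9 host genes, those of SCARNA9 and SCARNA11 included, 0 were higher or lower with edgeR, DESeq2 or limma-voom, 1 was higher and 0 lower at an unadjusted p under 0.05, and log2 fold changes ran from -0.23 (NCAPD2, SE 0.12) to 0.31 (CHD4, SE 0.12), with a median of -0.04. KPNA4 (0.11, SE 0.12), ATG16L1 (0.08, SE 0.13), PHB2 (0.03, SE 0.10), CEP295 (-0.04, SE 0.15) and SNHG10 (-0.17, SE 0.26) lay between.

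Proteins that bind scaRNAs were also without a call by edgeR, DESeq2 or limma-voom. The 6 H/ACA proteins had 0 members at an unadjusted p under 0.05 and a median of 0.08, with DKC1, the pseudouridine synthase dyskerin, at 0.23 (SE 0.12) and NAF1, an assembly factor, at -0.19 (SE 0.17). The 4 C/D proteins had 0 such members and a median of -0.03, with NOP58 at -0.10 (SE 0.12) and the methyltransferase FBL at -0.08 (SE 0.10). Of 13 listed Cajal body and CAB box proteins 11 were tested. Their median was 0.01 and 1 was lower at an unadjusted p under 0.05, GEMIN2 of the SMN complex (18.6 ± 2.82 to 10.8 ± 3.71 CPM, SD, n = 2, adjusted p = 0.523). COIL, the scaffold protein of the Cajal body, was at 8.05 ± 0.853 and 4.56 ± 1.01 CPM (adjusted p = 0.641).

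The targets of scaRNAs are among the snRNAs. The snRNA list was made by symbol, includes U6 genes and copies, and was not limited to known targets of scaRNAs. Of 1634 identifiers of snRNA genes and copies 10 were tested, and 4 were higher and 0 lower, with RNU5F-1 and RNU5E-1, both U5 genes, of smallest p (log2 fold changes 4.16, SE 0.38, and 2.96, SE 0.31). Near-identical copies make single snRNA values uncertain, and that rise was known from earlier results of these data. RNU5F-1 gave 5 and 3 WT reads, then 54 and 63 with R1810A. It passed the filter on low counts through R1810A only, which favoured a difference. RNU5E-1, with 88 and 117 WT reads, did not depend on this. For the other tested snRNA genes it was not counted, so the share called is no support for a difference. Of all genes tested 0.347% were higher, but of those of 200 bases or less outside the scaRNAs 32.6% were.

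Both members that passed had a terminal ACA box and were short, at 166 and 131 bases. SCARNA13, with the same box and 275 bases, did not pass. SCARNA17, at 144 bases, had a log2 fold change of -0.04 without the filter (SE 0.52). It had 10 and 8 reads against 9 and 5, not separable from those of SNHG22. Other scaRNA genes were looked up too: of 15 further symbols 10 had an identifier and 4 were tested, all of them of 131 to 139 bases. SCARNA11 went from 3 and 6 reads to 42 and 10 (log2 fold change 2.84, SE 0.69, adjusted p = 0.186). SCARNA18 had 2 and 5 against 25 and 10 (2.62, SE 0.62, adjusted p = 0.167), and SCARNA20 had 9 and 7 against 17 and 14 (1.28, SE 0.45, adjusted p = 0.479). In these the groups did not overlap, but without R1810A replicate 1 SCARNA11 stood at 1.48 and SCARNA18 at 1.83 (adjusted p = 1.0 and 0.946). SCARNA21, in contrast, had 55.6 and 54.3 CPM against 59.9 and 52.0 CPM, with overlap (0.03, SE 0.15, adjusted p = 0.975).

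Over tested scaRNA genes of 200 bases or less, 2 of 6 were higher, 5 had no overlap and the median log2 fold change was 2.28. Above 200 bases 0 of 6 were called in either direction, 3 were higher at an unadjusted p under 0.05 and the median was 0.42. SCARNA8, SCARNA11, SCARNA18 and SCARNA20 met the filter in both R1810A libraries but not in both WT libraries, which favours a rise among short genes that passed, so these medians are no support for a difference. Genes outside the class are given for comparison: 31 of the 95 other tested genes of 200 bases or less were higher (32.6%, median 1.74), against 2 of 70 that were longer, up to 350 bases (2.86%). Small nucleolar RNAs (snoRNAs) are the class nearest to scaRNAs. Of 61 other tested snoRNA genes of 200 bases or less 21 were higher, with a median of 1.82, and of 4 longer ones 0 were called but 4 were higher at an unadjusted p under 0.05, with a median of 1.43. The same filter applied to these genes, and how many of them passed through R1810A only was not counted. Their shares and medians are thus no support for a difference either. The split by length was made after the values were seen. The part of length or box type in these values was not tested.

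**Figure D4:**
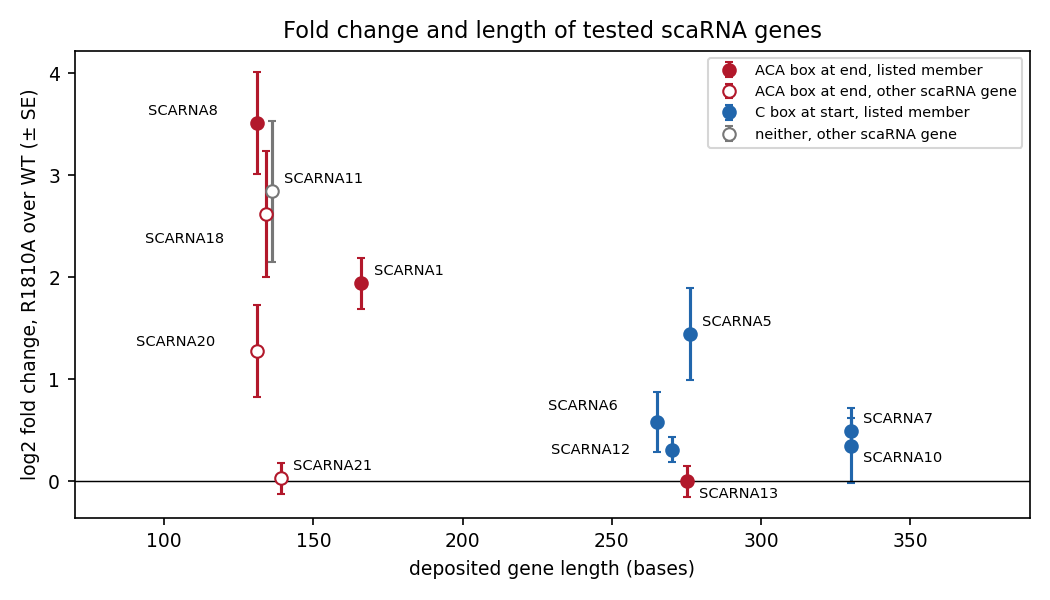
Log2 fold change (± SE) against deposited gene length for the 12 tested scaRNA genes, coloured by the terminal box found in the transcript, with filled points for listed members and open points for other scaRNA genes. Points above 1.9 all lie at 166 bases or less, and SCARNA21 at 139 bases lies at 0.03. SCARNA8, SCARNA11, SCARNA18 and SCARNA20 met the filter on low counts in both R1810A libraries but not in both WT libraries. This favours high points among rare short genes, so the plot is no support for a difference by length.

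SCARNA3, SCARNA14, SCARNA18B, SCARNA21B, SCARNA22 and SCARNA23 were not tested, with at most 10 reads in any library. SCARNA21B had 2 and 1 reads against 5 and 6, and SCARNA14 had 1 and 0 against 8 and 4.

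Abundant and rare members were split at the 5 of highest mean CPM over all libraries: SCARNA12, SCARNA10, SCARNA7, SCARNA13 and SCARNA1. Their median log2 fold change was 0.35. Of the 4 rarer ones, 3 were tested (SCARNA5, SCARNA6 and SCARNA8) with a median of 1.44. SCARNA8 is among them and passed the filter through R1810A only, so these medians support no difference. One member past the threshold stood on each side, SCARNA1 among the abundant and SCARNA8 among the rare. The abundant members summed to 1535 and 2570 reads against 2573 and 1790, the rare ones to 102 and 250 against 423 and 194. Scaled for depth these were 673 and 856 CPM against 1230.0 and 861 CPM for the abundant, and 44.7 and 83.2 CPM against 203 and 93.3 CPM for the rare. Neither scaled sum overlapped between groups, though WT replicate 2 and R1810A replicate 2 were close in both.

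All 9 genes together made up 0.0704% (95% interval 0.0670 to 0.0739%) and 0.0943% (0.0908 to 0.0978%) of summed counts in WT, and 0.142% (0.137 to 0.147%) and 0.0953% (0.0912 to 0.0996%) in R1810A. The intervals of WT replicate 2 and R1810A replicate 2 overlap, while WT replicate 1 lies below both and R1810A replicate 1 above both. The means of 0.0823 ± 0.0169% and 0.118 ± 0.0327% (SD, n = 2) differed by 0.0361 percentage points, about the size of the SD in R1810A, and with 1 library left out the difference ran from 0.0130 (without R1810A replicate 1) to 0.0592 (without R1810A replicate 2). The composition moved as well. SCARNA1 took 5.56% and 4.40% of these reads for WT, then 14.1% and 11.4% for R1810A, and SCARNA8 went from 0.244% and 0.142% to 1.64% and 1.26%. SCARNA13 went from 18.8% and 17.9% to 12.0% and 13.8%. Shares of a whole are tied, so a rise in one member lowers the share of the others.

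**Figure D5:**
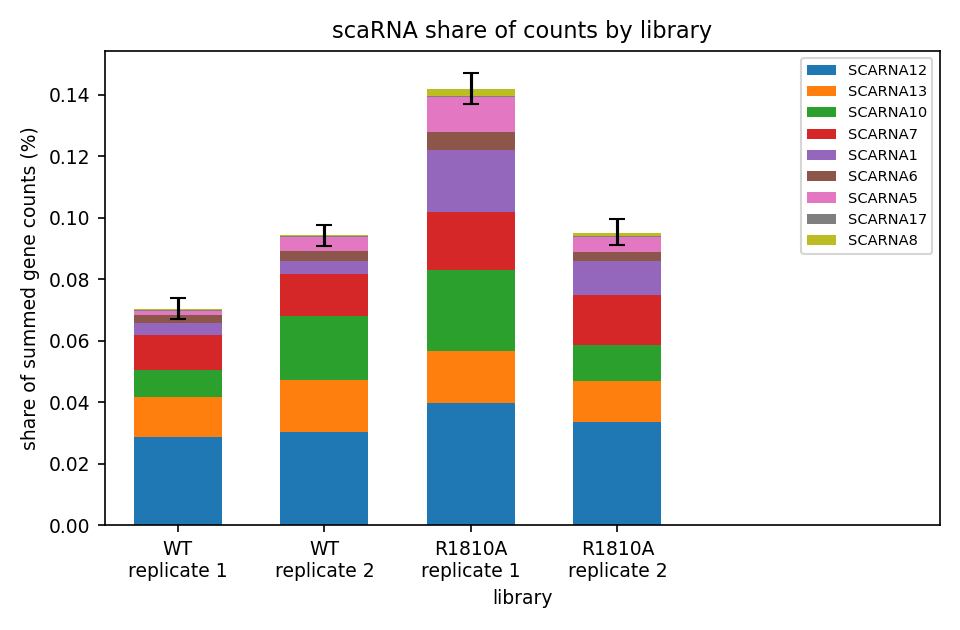
Share of summed gene counts taken by the 9 scaRNA genes in each library, stacked by gene, with exact 95% intervals on the total. The total is highest in R1810A replicate 1 (0.142%), and WT replicate 2 and R1810A replicate 2 are close (0.0943% and 0.0953%).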

How the data were processed

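Gene counts were compared between 2 WT and 2 R1810A libraries. The submitters' processing notes name Bowtie and hg19, with no version. The sources used here do not give the counting program, annotation, strand use or treatment of multi-mapping reads. The authors deposited raw read counts per Ensembl gene, with gene length, total reads and RPKM per the file headers; the authors' RPKM equalled the count scaled by length and total reads in all 51714 rows (relative tolerance 0.0001) and served only to compare levels between genes.

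Symbols for 40926 identifiers came from a name table and GENCODE 29 (GRCh38), which also gave transcripts, host genes and coordinates. The test was edgeR 4.0.16 in R 4.3.3 (filterByExpr, TMM, glmQLFit, glmQLFTest, group only), with DESeq2 1.42.0 and limma 3.58.1 as alternatives. The edgeR test was also run on simulated counts that gave all genes the same spread, so that run does not bear on the spread of the members. CPM are relative to the counts of tested genes, with TMM. The SE is the absolute log2 fold change over √F, with F from the quasi-likelihood test. Fits that leave out a library kept the gene set.

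All members, tested further scaRNA genes and host genes, and the 2 genes of smallest p per other list, are named. A planned search for genes patterned like SCARNA2 was not possible without its identifier. Members and lists were chosen with earlier results of these data known. Intervals cover counting error only, as reads are not independent molecules.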

Additional observations from a re-analysis of the deposited data

How the results depend on the processing

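The 37 higher and 1 lower genes over the whole table became 78 and 7 with no filter, 73 and 4 with the replicate block, 24 higher with limma-voom, 5 lower with the deposited total reads, 4 lower with robust edgeR and 2 lower with DESeq2. With a library left out they ran from 2 to 82 higher and from 0 to 11 lower. The 2 higher members became 1 with robust edgeR and ran from 0 (without either WT library) to 5 (without R1810A replicate 2), and no alternative called a member lower. With the replicate block the same 2 members were called, and SCARNA11 passed as well (adjusted p = 0.0352). The labels' numbers were not shown to pair the libraries: deviations of same-numbered libraries correlated at -0.0522 over 5424 genes. SCARNA11 and SCARNA18 also passed with no filter (0.0101 and 0.0201) and without R1810A replicate 2, and stood at 1.48 and 1.83 without R1810A replicate 1. No alternative called a host gene or scaRNP protein. The gap between abundant and rare members, -1.08, was -1.62 with a mean count of 100 as the limit and between -2.08 and -0.54 when 1 library was dropped.

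Signs changed for values near 0. As 1 library was dropped, SCARNA6 reached -0.02 (no R1810A replicate 1), SCARNA10 ran from -0.35 to 1.12 (negative without either replicate 1, at -0.12 for WT), SCARNA13 from -0.21 to 0.18 (0.17 without WT replicate 2), SCARNA21 from -0.08 to 0.12, CEP295 from -0.22 to 0.19 (0.06 without R1810A replicate 1), HAUS6 from -0.45 to 0.06, PHB2 from -0.01 to 0.07 and SNHG10 from -0.36 to 0.09. PPP1R8 was 0.05 without WT replicate 1. SCARNA13 was 0.00 with DESeq2. With the deposited total reads, which moved the median of all genes to -0.13, SCARNA21 was -0.09, ATG16L1 -0.04, KPNA4 -0.01 and PHB2 -0.09. The cause was not tested. The planned use of SCARNA2 alone as the independently transcribed class was not run.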

Other observations

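An identifier that the name tables used here leave unnamed, ENSG00000238881, gave 2277 and 2805 WT reads, then 3025 and 2168 with R1810A, more than any scaRNA member. Its deposited length of 420 bases is also that of the GENCODE transcript of SCARNA2, but 37 other identifiers have that length, 9 of the 38 lack a name, and no table pairs it with a gene. Its level was 966 ± 45.2 CPM against 1250.0 ± 288 CPM (SD, n = 2), with no overlap between groups and no call (log2 fold change 0.37, SE 0.15, adjusted p = 0.563). It was singled out after its values were seen and enters no count given above.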
